A study of Homo sapiens with 6 samples.

Results

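Control hFOB 1.19 cells, those titled as carrying no mutant histone, are described here by the RNA they held. Of the 6 libraries of the series, the 3 used were EV replicate 2, WT replicate 1 and WT replicate 2, taken by their titles. The 2 libraries titled G34W were left out, and so was EV replicate 1, a control by its title too, because the set of 3 was defined without it. EV cells had received the empty lentiviral vector pHIV-dTomato, and WT cells the same vector with the cDNA of Drosophila His3.3A, an orthologue of the human histone gene H3-3A, with an HA tag at its C-terminus (H3.3-WT). These osteoblastic cells, of human fetal origin, are kept dividing by an SV40 large T antigen that works only at low temperature. All 3 cultures were sorted for dTomato, kept in medium with G418 at 34 °C, where that antigen works, and taken 15 days after transduction; poly(A) RNA was sequenced. The cells were collected in duplicate, and nothing in the labels states that replicates came from separate transductions. Title and genotype field differ for 4 of the 6 libraries. For 2 of the 3 libraries used the title and the genotype field of the labels disagree: those titled WT are given the genotype H3.3-G34W there. Titles set the groups here, and EV replicate 2 is the 1 library used whose title and genotype field agree.

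Osteoblasts are the mesenchymal cells that lay down bone. They secrete type I collagen and other matrix proteins, mineralise that matrix with the help of a phosphatase at their surface, and signal to the osteoclasts that resorb bone. RUNX2 and then SP7 drive commitment to this lineage, whereas osteocalcin, bone sialoprotein and the osteocyte proteins appear late.

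Every value below is a normalised value, an estimated count per gene scaled by the authors per library and not divided by gene length. Values of one gene may be set side by side between libraries; ranks, and the words highest by value, order genes by these values and so also by transcript length, while levels of different genes are compared per kb of transcript. The values summed to 41985189.5 in EV replicate 2, 40778682 in WT replicate 1 and 48024590.3 in WT replicate 2. A gene is counted as detected at a value of at least 10 in all 3 libraries. Of the 35639 genes in the table, 14630 (41.1%) were detected and 18575 (52.1%) were under 10 in all 3 libraries. Another 2434 were mixed, at 10 or more in some libraries only. Of all genes, 12516 were listed at 0 in all 3. The counts of list members detected below are to be read beside this 41.1%. The lists were chosen with earlier results of these data known. Of 4 genes used to check the label, COL1A1 and RUNX2 belong to osteoblasts and GAPDH and ACTB to cells in general, and all were detected. COL1A1, the alpha 1 chain of type I collagen, had values of 33754 in EV replicate 2, 26425 in WT replicate 1 and 43115 in WT replicate 2. GAPDH, a glycolytic enzyme, had 264847, 241572 and 294895 in the same order of libraries, and the cytoplasmic actin ACTB 237004, 207886 and 316349. RUNX2, the first transcription factor of the osteoblast lineage, had 573, 387 and 429.7. All 4 were far above the level of detection, with RUNX2 at rank 9455 by mean value against rank 118 for COL1A1; both ranks depend on transcript length as well as level.

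Protein synthesis and the cytoskeleton were the largest listed groups among the 100 genes highest by value, followed by the matrix and glycolysis. Of the 100 genes with the highest mean, 64 fell in a functional list and 36 in none. There were 17 genes of the cytoskeleton, 22 of protein synthesis (16 cytosolic ribosomal proteins and 6 translation genes), 7 of glycolysis and 10 of the extracellular matrix. The lists hold 30 cytoskeletal, 87 ribosomal protein, 12 translation and 14 glycolytic genes among the 35639 in the table. Those of the matrix hold 20 collagens, 16 collagen-processing genes, 29 glycoproteins, 18 proteoglycans and 18 proteases or inhibitors, so the counts come from lists of unlike size. EEF1A1, which brings aminoacyl-tRNA to the ribosome, was at rank 2 by mean, with 376762 in EV replicate 2, 423499 in WT replicate 1 and 521333 in WT replicate 2. TUBA1B, an alpha tubulin, was at rank 4, with 242537, 261039.7 and 289867 in the same order. Tubulins, actins, EEF1A1 and ribosomal protein genes have close copies elsewhere in the genome, so their estimated counts can be split between copies. The intermediate filament protein VIM, which marks mesenchymal cells, had 161866, 145103 and 233828, and PKM, which makes pyruvate in the last step of glycolysis, 198366, 168814 and 273468. All 4 were highest in WT replicate 2, whereas EEF1A1 and TUBA1B were lowest in EV replicate 2 and VIM and PKM in WT replicate 1.

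**Figure D1:**
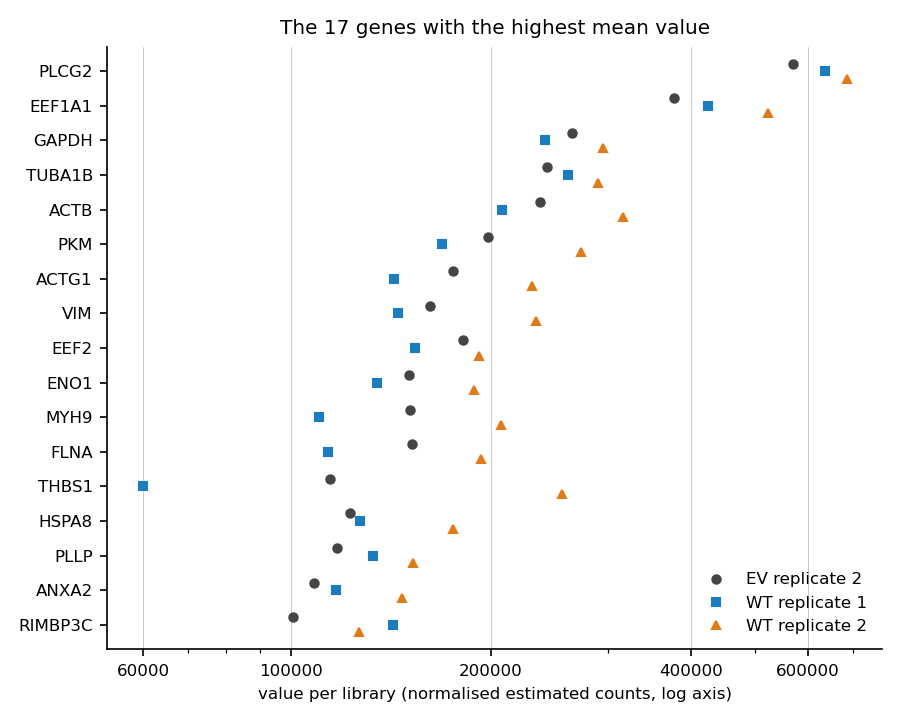
Normalised value in each library (horizontal log axis) of the 17 genes with the highest mean over the 3 libraries, ordered by that mean; circles are EV replicate 2, squares WT replicate 1 and triangles WT replicate 2. THBS1 spans the widest range, from 59895 to 255665, and PLCG2 lies above all other genes in every library.

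Per kb, the order of the highest genes changed with the length used. On the scale of mean value per kb of the canonical transcript, a length added after the data were seen, GAPDH came first at 207864, followed by the actin-sequestering thymosin TMSB10 at 201559, TUBA1B at 162558 and the related thymosin TMSB4X at 150785. With the median length of the coding transcripts the order differed: TUBA1B came first at 452879 per kb, then the glycolytic enolase ENO1 at 250966, EEF1A1 at 224132, GAPDH at 209412 and TMSB10 at 201559. GAPDH lay above ACTB, and ACTB above COL1A1, at 140037 and 5822 per kb of canonical transcript and 195189.5 and 10655 per kb of median length. Of the 30 highest genes per kb by median length, 21 were also among the 30 highest by canonical length. Among the 100 highest genes, the share from protein synthesis was 22% by value, 34% per kb of median length and 44% per kb of canonical transcript, while matrix genes made up 10%, 2% and 1%. The matrix genes of the top 100 thus mostly fell out of it once their long transcripts were divided by length.

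Summed values were spread over many genes. The 10 highest genes held 6.35% of the summed mean values, the 100 highest 20.1% and the 1000 highest 51.8%. By library, the share of the 10 highest genes was 6.10% in EV replicate 2, 6.19% in WT replicate 1 and 6.89% in WT replicate 2. The curves of cumulative share lie close together, with WT replicate 2 uppermost at each of these sizes.

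**Figure D2:**
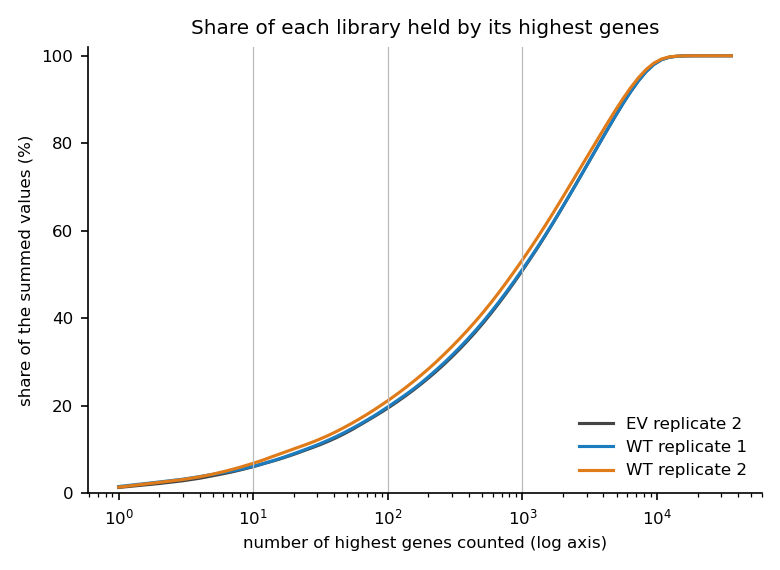
Share of each library's summed values (vertical axis, %) held by its highest genes, against the number of genes counted (horizontal log axis); grey lines mark 10, 100 and 1000 genes. At 1000 genes the libraries hold 51.0%, 51.2% and 53.4%.

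The highest gene by mean value was one not usually linked to bone. PLCG2, a phospholipase C of immune receptor signalling best known from B cells, had 568432 in EV replicate 2, 636994 in WT replicate 1 and 685928 in WT replicate 2, above every other gene by value in each library. Per kb it lay below GAPDH, at 72750.0 against 207864 by canonical length and 154032 against 209412 by median length. PLLP, a membrane protein of myelin, was at rank 15 with 117595, 133222 and 152622 in the same order of libraries. RIMBP3C, of a family known from testis, was at rank 17 with 100953, 142765 and 126541. Its close copies RIMBP3 and RIMBP3B had only 259.9, 195 and 153, and 26.2, 13.3 and 154, respectively; both were named after their values were seen, and estimated counts can be split between such copies. PPEF2, a phosphatase of photoreceptors, was at rank 28 with 63651, 94963 and 94258, and the neuronal vesicle protein NRSN1 at rank 75 with 44616, 47829 and 48399. These 5 genes, singled out after their values were seen, held 2.13%, 2.59% and 2.31% of the summed values of the 3 libraries. Each was high in all 3. No reads were looked at, so whether these values come from transcripts of those genes was not tested.

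Other unlisted genes of the top 100 were housekeeping, immune and stress genes; SOD2, IFI6, MX1 and AXL among them were named after their values were seen. They included the MHC class I light chain B2M, at 95979.9, 123311 and 79273, and the mitochondrial superoxide dismutase SOD2. Among them were 3 genes induced by interferon: ISG15, a ubiquitin-like protein, at 62008 in EV replicate 2, 48393 in WT replicate 1 and 90789 in WT replicate 2, IFI6 at 61362, 49390.5 and 57607 and the antiviral GTPase MX1 at 56274, 40321 and 63742. ISG15 was thus at rank 42, IFI6 at rank 60 and MX1 at rank 63 among all genes by mean value. AXL, a receptor tyrosine kinase of mesenchymal cells, stood at rank 86.

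RNA families that differ in their poly(A) tails had unequal shares. Replication-dependent histone genes, whose mRNAs end in a stem-loop in place of a poly(A) tail, held 1.67%, 1.99% and 1.82% of the summed values in EV replicate 2, WT replicate 1 and WT replicate 2. Among 66 such genes, 61 were detected and 14 were among the 300 highest, the highest by value being the linker histone H1-5 with 39707, 50464 and 57835; histone genes are near-identical copies, so counts can be split among them. H1-5, and MT-CO1 below, were named after their values were seen. Mitochondrially encoded genes, whose mRNAs carry short poly(A) tails, held only 0.0154%, 0.0108% and 0.0125%. Of these 13 genes, 12 were detected, against 41.1% of all genes, and none was among the 300 highest of 35639. The highest of them by value, MT-CO1 of the respiratory chain, had 3315, 2095 and 2981. Cytosolic ribosomal protein genes held 4.61%, 4.95% and 5.01%. The labels state selection of poly(A) RNA, and the part of that step in these shares was not tested.

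The proximal promoters of the abundant genes were read for a TATA element, the letters TATAA on either strand, in the 50 bases before the gene start. Promoter sequences are those of RefSeq on GRCh38.p14, matched by symbol. The element was in 24 of 129 promoters (18.6%) of the 88 matched genes among the 100 highest, in 4.12% of 16087 promoters of detected genes, in 15.2% of 3548 promoters of the genes under 10 in all 3 libraries that could be matched, and in 6.08% of all 35116 promoters. Matching found 10977 of 14619 detected genes but only 2928 of 18572 genes under 10, so the share in low genes describes few of them. In the list of translation genes it was in 5 of 13 promoters, in that of cytokines and chemokines in 4 of 14, and in that of matrix glycoproteins in 6 of 27. The other lists read had it in 3 of 10 promoters of osteoblast factors, 7 of 36 of growth factors and 1 of 9 of proteases and their inhibitors. To show where the element lies in detected genes, and 2 detected genes without it, the upstream bases are printed with TATAA in capitals where present: EEF1A1 at chr6:73521033-73521082 (minus strand), the matrix protein FN1 at chr2:215436069-215436118 (minus strand), the matricellular protein CCN2 at chr6:131951373-131951422 (minus strand), the chemokine CXCL8 at chr4:73740519-73740568 (plus strand), the cytokine IL11 at chr19:55370464-55370513 (minus strand), the collagen-binding protein SPARC at chr5:151686916-151686965 (minus strand) and VIM at chr10:17228191-17228240 (plus strand). IL11, at rank 681 by mean value, and CCN2, at rank 835, lie outside the 100 highest genes. Each run ends at the last base before the start, read 5′ to 3′ on the gene's strand, and the genes shown were chosen after their values were seen.
EEF1A1: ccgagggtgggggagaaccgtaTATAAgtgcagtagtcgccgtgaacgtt
FN1: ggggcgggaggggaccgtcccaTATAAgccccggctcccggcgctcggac
CCN2: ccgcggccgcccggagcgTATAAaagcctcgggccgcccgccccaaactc
CXCL8: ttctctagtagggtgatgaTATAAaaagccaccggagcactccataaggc
IL11: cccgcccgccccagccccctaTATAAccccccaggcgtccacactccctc
SPARC: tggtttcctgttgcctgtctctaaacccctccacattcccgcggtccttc
VIM: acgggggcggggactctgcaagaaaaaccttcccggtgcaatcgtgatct

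The first 5 runs hold the element and the last 2 do not hold these letters on either strand. A match of letters is a description of the sequence, with no claim that a factor binds there, and genes with several RefSeq starts count more than once.

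Most listed matrix genes were detected, though the matrix share of the top 100 depended on length. It was 10% by value, 2% per kb of median length and 1% per kb of canonical transcript. The lists were chosen with earlier results of these data known, so shares detected cannot measure how broad the matrix was. Of the 20 collagen chains listed, 19 were detected, against 41.1% of all genes. The median mean value per kb of canonical transcript among detected chains was 2102, against 285 over all detected genes. COL1A2, the alpha 2 chain of type I collagen, had 111335 in EV replicate 2, 98769 in WT replicate 1 and 90034 in WT replicate 2. Per kb it lay above COL1A1, at 19725 against 5822 by canonical length and 19725 against 10655 by median length. The beaded-filament chains COL6A1 and COL6A2 had 70176, 54251 and 68537 and 70041, 58442 and 60501. COL5A2, whose product forms mixed fibrils with type I collagen, had 70092, 74202 and 50556, and the fibrillar chain COL3A1 62246, 51115 and 37814. COL4A2 of basement membranes had 37472, 33331 and 48692. Of the 19 detected chains, 8 were highest in EV replicate 2, 3 in WT replicate 1 and 8 in WT replicate 2. Over all 14630 detected genes these were 3733, 3928 and 6969; COL3A1 and COL5A2 were named after their values were seen. Cartilage chains were low, with COL2A1 at 25.1, 46.8 and 27.2 and COL9A1 under 10 in all 3 libraries at 1.21, 7.17 and 7.24.

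Of the 16 listed genes that mature collagen, all were detected. The prolyl hydroxylase subunit P4HB had 34164 in EV replicate 2, 35121 in WT replicate 1 and 37979.6 in WT replicate 2, the collagen chaperone SERPINH1 19170.3, 15723 and 22147 and the crosslinking oxidase LOXL2 20105, 18939 and 24857. These 3 were among the 4 highest of the list per kb by both median and canonical length. LOXL4, another oxidase of this family, was uneven, at 5139.6, 5922 and 1162; it was named after its values were seen.

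Among matrix glycoproteins, 27 of 29 were detected, against 41.1% of all genes. SPARC, which binds collagen and calcium in bone, was the highest per kb at 22064 by canonical and 132191 by median length, and even between libraries at 72998, 76069 and 79359. THBS1, an adhesive glycoprotein that can activate latent TGF-beta, had 114453 in EV replicate 2, 59895 in WT replicate 1 and 255665 in WT replicate 2. TGFBI, a TGF-beta-induced matrix protein, had 26331, 21962 and 43945, tenascin TNC 34479, 18986 and 55733 and fibronectin FN1, named after its values were seen, 50738, 43862 and 82202. For each of THBS1, TGFBI, TNC and FN1, WT replicate 2 was the highest library and WT replicate 1 the lowest. Over the list 11 detected genes were highest in EV replicate 2, 3 in WT replicate 1 and 13 in WT replicate 2. After scaling by the median ratio to the mean these were 13, 4 and 10. Among all 14630 detected genes the counts were 3733, 3928 and 6969, and 4159, 5058 and 5413 after that scaling. The share highest in WT replicate 2, 48.1%, was thus close to the 47.6% of all detected genes. MGP, an inhibitor of calcification, had 1.25, 10.6 and 10.2 and was named after its values were seen; it was close to the level of detection in WT libraries and under it in EV replicate 2.

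Proteoglycans were more divided, with 14 of 18 detected. SRGN, a core protein of secretory granules, was the highest of the list per kb, at 10926 by either length, with values of 13779, 14197 and 11914. The cell-surface syndecan SDC4 had 19046, 17253 and 26549 and the glypican GPC1 9822, 10693 and 7069. ASPN, a small proteoglycan that binds collagen, and ACAN, the main proteoglycan of cartilage, were under 10 in all 3 libraries, at 1.80, 0.967 and 0 and 3.40, 4.50 and 1.85.

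Among proteases and their inhibitors, the membrane collagenase MMP14 had 37632 in EV replicate 2, 33185 in WT replicate 1 and 44148 in WT replicate 2 and the plasminogen activator PLAU 20511, 18494 and 24872. TIMP1, an inhibitor of metalloproteases, had 4599, 4834 and 6257. Of this list 15 of 18 genes were detected, against 41.1% of all genes. Among those 15, 13 were highest in WT replicate 2, against 6969 of all 14630 detected genes. After each library was divided by its median ratio to the mean, these were 10 and 5413 genes.

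**Figure D3:**
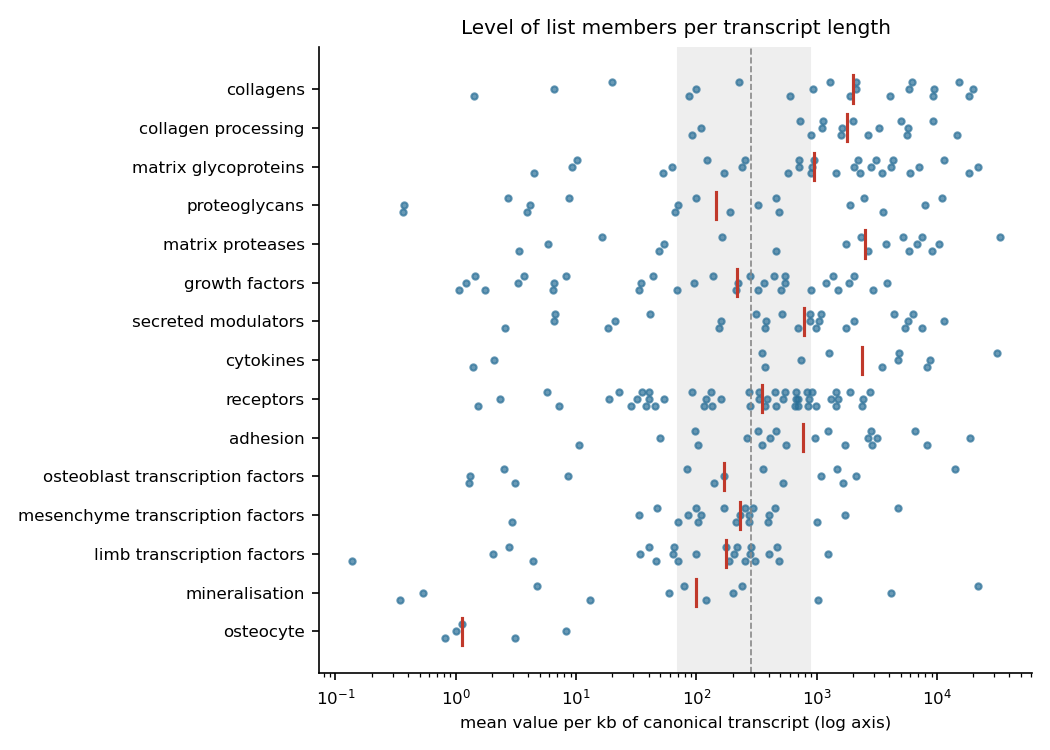
Mean value per kb of canonical transcript (horizontal log axis) of each member of 15 lists; each point is a gene, red bars are list medians over the members drawn, and members listed at 0 in all 3 libraries are not drawn. The dashed line is the median of all detected genes, 285, and the grey band runs from their 25th to their 75th percentile, 70.6 to 886.

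Genes of the secretory route were all detected, as were those of the contractile and adhesion lists. CALR, the calcium-binding chaperone of the endoplasmic reticulum, was the highest per kb of the 12 secretory genes, at 38641 by canonical and 44224 by median length, with 73711, 63103 and 83557. Of the 10 contractile genes, the tropomyosins TPM2 and TPM1 had 38066, 32773 and 60076 and 20878, 19914 and 35648, and the actin crosslinker TAGLN 17710.1, 14096 and 39669. WT replicate 2 was the highest library for 8 of the 10, also after scaling by the median ratio. Among all 14630 detected genes it was the highest for 6969, and for 5413 after that scaling.

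Secreted signals covered several families. Of 32 growth factor genes, 25 were detected, against 41.1% of all genes. The non-canonical Wnt ligand WNT5B had 6313 in EV replicate 2, 6162 in WT replicate 1 and 7119 in WT replicate 2, and GDF15, a stress-induced TGF-beta family member, 4846, 5723 and 3220.3. Both were among the 4 highest of the list per kb by either length. The activin subunit INHBA had 5632, 4613 and 11442 and the angiogenic factor VEGFA 4807, 3428 and 6616. SCUBE3, a secreted protein with CUB and EGF-like domains, was steady at 535 in EV replicate 2, 520.4 in WT replicate 1 and 559.6 in WT replicate 2. With the genotype field in place of the titles, its mean moved from 538 to 263. BMP2 and BMP7, bone morphogenetic proteins, were under 10 in all 3 libraries, at 1.87, 3.89 and 9.47 and 4.46, 7.58 and 0.82, as was PDGFD at 9.50, 3.19 and 7.38.

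The pair of genes through which osteoblasts set osteoclast formation was one-sided. TNFRSF11B, the decoy receptor osteoprotegerin, had 1017 in EV replicate 2, 1039 in WT replicate 1 and 1137 in WT replicate 2. TNFSF11, the osteoclast-inducing ligand RANKL, had 2.86, 1.24 and 17.4 in the same order, with only WT replicate 2 above 10, so 1 library decides its mean of 7.18. By the genotype field the means were 978 for TNFRSF11B and 24.6 for TNFSF11. Per kb TNFRSF11B was 510.0 by either length, and TNFSF11 was 3.26 by canonical and 3.86 by median length.

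Secreted carriers and antagonists were detected for 24 of 26 genes, against 41.1% of all genes. FSTL1, a follistatin-like glycoprotein of mesenchyme, had 67205 in EV replicate 2, 71003 in WT replicate 1 and 56177 in WT replicate 2, the stanniocalcin STC2 23521, 24144 and 32459.5 and the insulin-like growth factor carrier IGFBP7 13228, 11391 and 7491. These 3 were among the 4 highest of the list per kb by either length. DKK3, of the dickkopf family, had 11716, 11769 and 9726.

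Inflammatory signals were among the abundant secreted products. CXCL8, a chemokine for neutrophils, was the highest cytokine per kb at 31270.2 by canonical and 43848 by median length, and had 42074 in EV replicate 2, 53064 in WT replicate 1 and 58898 in WT replicate 2. IL1B, an inflammatory cytokine known mainly from myeloid cells, had 10954, 13068 and 15739, the chemokine CXCL1 11329, 7079 and 10623 and IL11, a cytokine of the IL-6 family, 12295, 7590.3 and 14276. TNF was listed at 0 in all 3 libraries, and the epithelial alarmins TSLP and IL33 were under 10 in each, with IL33 at 0, 1.98 and 9.13. Of the 13 genes, 10 were detected, and their median was 4104 per kb of canonical transcript, against 285 over all detected genes.

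Receptor genes were mostly detected, at 46 of 48 against 41.1% of all genes, with none under 10 in all 3 libraries. Of the 46, 26 lay above the median of all detected genes per kb of canonical transcript, and 24 by median length. The semaphorin receptor PLXNB2 was highest per kb, at 2778 by canonical and 25287 by median length, with 21144 in EV replicate 2, 16322 in WT replicate 1 and 15939.5 in WT replicate 2. NOTCH2, a receptor for cell-bound ligands, had 26425, 22615 and 32189 and NRP1, a co-receptor for semaphorins and VEGF, 13511, 12209.6 and 15646. PDGFRB, a receptor of mesenchymal growth factors, had 4379, 3693 and 3131, whereas PDGFRA had 116, 149.8 and 91.7. Per kb PDGFRB lay above PDGFRA by either length, at 655 against 18.7 for canonical transcripts and 4543 against 175 for median lengths. PTH1R, through which parathyroid hormone acts on osteoblasts, was low at 22.9, 82.7 and 80.4, and FGFR2 was low too, at 1.48, 17.1 and 2.76; PDGFRA, PTH1R and FGFR2 were named after their values were seen.

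Adhesion genes numbered 20, all detected. Integrin beta 1, ITGB1, which pairs with most matrix-binding alpha chains, had 63395 in EV replicate 2, 79576 in WT replicate 1 and 66115 in WT replicate 2, and ITGA3, a laminin-binding alpha chain, 32249, 32784 and 31198. CD44, the hyaluronan receptor, had 13413, 10319 and 22872 and was highest in WT replicate 2. The 4 surface genes that cultured stromal cells carry were all detected: NT5E, the ectonucleotidase CD73, had 29598, 35085 and 40548, the glycoprotein THY1 2887, 2955 and 2636 and the TGF-beta co-receptor ENG 2316, 1531 and 2891. Of 7 surface genes that such cells lack, 3 were detected (42.9%, close to the 41.1% of all genes), and HLA-DRA of MHC class II was listed at 0 in all 3 libraries.

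Osteoblast transcription factors ranged widely in level. Of 15 genes in the list, 11 were detected. ATF4, which controls amino acid supply and osteocalcin transcription, was the highest per kb at 14174 by canonical and 15775 by median length, with 21158 in EV replicate 2, 20946 in WT replicate 1 and 18237 in WT replicate 2. CBFB, the partner subunit of RUNX2, had 4229.8, 3886 and 5664, and the AP-1 subunits FOSL2 and JUNB 11334, 9842 and 12038 and 3903, 3604 and 4071. SP7, which acts after RUNX2, was under 10 in all 3 libraries at 1.57 in EV replicate 2, 4.39 in WT replicate 1 and 6.03 in WT replicate 2. By the genotype field its mean was 2.06. The homeobox genes DLX5 and DLX6 were also under 10, at 4.39, 4.46 and 4.33 and 7.08, 2.80 and 7.35. Per kb, RUNX2 was 83.6 and SP7 1.28 by canonical length, and 86.0 and 1.80 by median length. RUNX2 itself lay below the median of detected genes, 285 and 464 per kb on the same scales.

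Mesenchymal and positional factors were mostly detected, with medians below that of all detected genes. Per kb of canonical transcript the medians of the detected members were 243 and 206 against 285, and of median length 353 and 281 against 464. Of 21 mesenchymal factors, 20 were detected. The AP-1 subunit JUN had 17432 in EV replicate 2, 11766 in WT replicate 1 and 17402 in WT replicate 2, the co-activator YAP1 5347, 4467 and 6514 and the factor ETS1 8634, 7933 and 10176. Of 24 limb and axial factors, 19 were detected, among them TBX3, a T-box factor of the limb bud, at 5999.7, 4351 and 7431, and the homeobox genes HOXA9 and HOXA10 at 916, 865 and 721 and 1066, 1182 and 1292. EN1, of the ventral limb ectoderm, was listed at 0 in all 3 libraries, and PAX1, of the sclerotome, was at 0, 0 and 2.19. PAX3, a factor of muscle and neural crest precursors, had 737, 778 and 698 and was named after its values were seen.

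The mineralising programme was mostly detected but low. Of its 12 genes, 8 were detected (66.7%, against 41.1% of all genes), and 3 of these lay above the median of all detected genes per kb, by either length. Beside SPARC these were the phosphate transporters SLC20A1 and SLC20A2, at 11312, 10370.2 and 18968 and 3798, 3506 and 4229. SPP1, osteopontin, had 413, 171 and 544. BGLAP, osteocalcin, had 5.55 in EV replicate 2, 44.9 in WT replicate 1 and 39.3 in WT replicate 2, under 10 in EV replicate 2 alone; its mean was 29.9, and 12.3 by the genotype field. IBSP, bone sialoprotein, was at 2.50, 0 and 0 and OMD, osteomodulin, at 0, 4.44 and 0. ALPL, the tissue-nonspecific alkaline phosphatase, had 428, 245 and 236 and was named after its values were seen. Osteocyte genes were nearly absent: 1 of 5 was detected, the peptidase PHEX at 54.4, 19.4 and 82.8. DMP1, SOST and FGF23, a matrix protein, a Wnt inhibitor and a phosphate-regulating hormone, were under 10 in all 3 libraries, and MEPE was under 10 in EV replicate 2 and WT replicate 1.

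**Figure D4:**
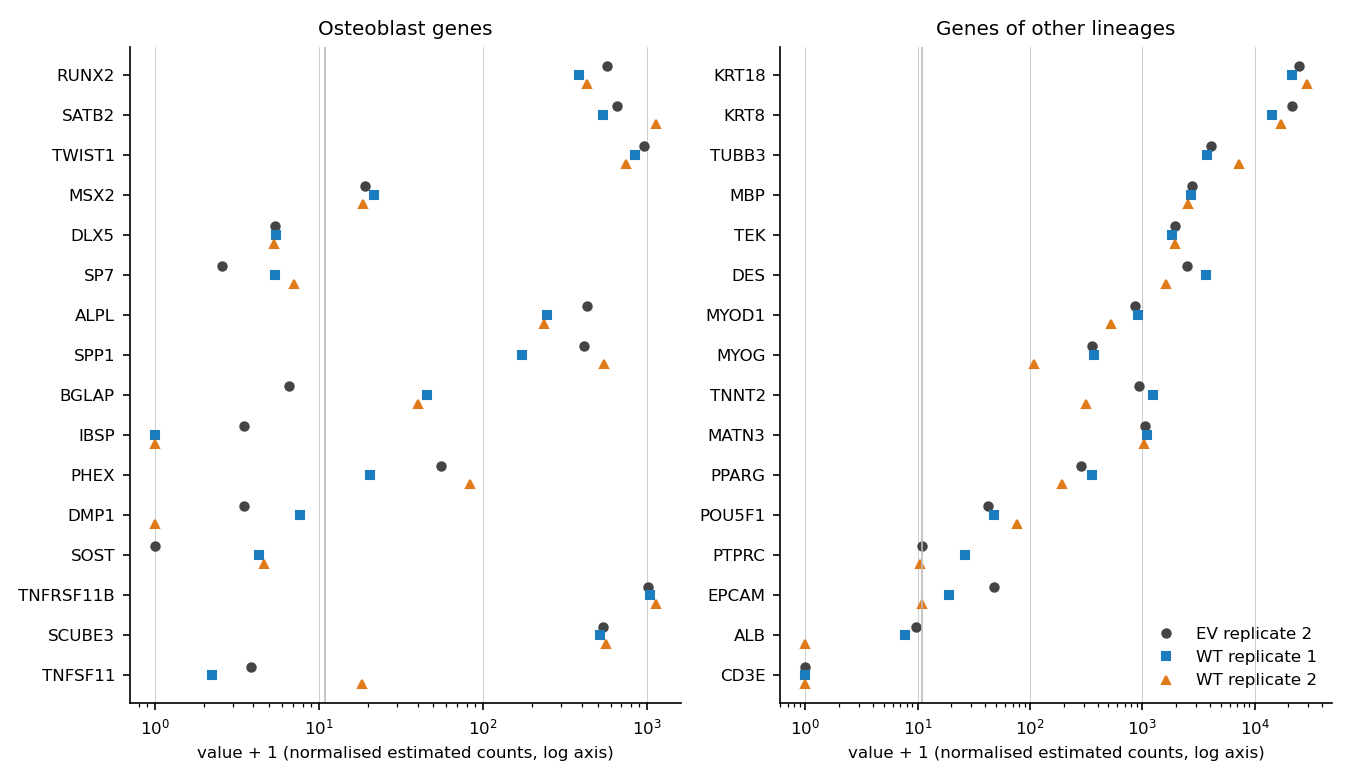
Normalised value plus 1 (horizontal log axis) in each library for 16 genes of osteoblasts and their signals to osteoclasts and for 16 genes of other lineages; symbols are circles for EV replicate 2, squares for WT replicate 1 and triangles for WT replicate 2. The vertical line stands at a value of 10; RUNX2 lies to its right and SP7 to its left in all 3 libraries.

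Genes of the cell cycle were high. All 20 genes of replication and mitosis were detected, and 18 of them lay above the median of detected genes per kb by either length. The cyclin CCND1 had 26524 in EV replicate 2, 22216 in WT replicate 1 and 42315 in WT replicate 2 and the replicative helicase subunit MCM2 23649.9, 25374 and 25902; both were among the 4 highest of the list per kb by either length. Checkpoint genes were detected for 7 of 8. CDKN1A, the p53-induced inhibitor p21, had 34788 in EV replicate 2, 39307 in WT replicate 1 and 20723 in WT replicate 2, and MDM2, the ligase that degrades p53, 16637, 18967 and 9662; both were lowest in WT replicate 2. CDKN2A, which encodes p16 and ARF, had 8211, 6988 and 9362. TERT, the catalytic subunit of telomerase, was at 32.8, 2.67 and 0 and was named after its values were seen.

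Other lineages were checked with 91 genes in 17 lists, of which 46 (50.5%) were detected, against 41.1% of all genes; 29 were under 10 in all 3 libraries, 16 were mixed and 8 were listed at 0 in all 3. At a level of 50 in place of 10 the order turned round, with 24 of the 91 detected and 12531 of all 35639 genes, a larger share. Only 7 of the 91 had a mean of at least 1000. In bulk RNA, few cells of a type and little RNA per cell cannot be told apart. Lymphoid, erythroid and germ cell lists had no detected member. The T cell receptor subunits CD3D and CD3E, the B cell gene MS4A1, the haem synthesis gene ALAS2 and the globin gene HBA1 were listed at 0 in all 3 libraries, and HBB had 1.25, 0 and 2.91. Hepatocyte genes were under 10 in all 3 apart from the protease inhibitor SERPINA1, at 70.1, 69.2 and 128, with ALB at 8.75, 6.66 and 0.

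Myeloid, endothelial and osteoclast genes were often detected but at low levels. Of 7 endothelial genes 6 were detected, of 6 myeloid genes 4 and of 7 osteoclast genes 4, shares above the 41.1% of all genes. Of these detected genes with a transcript length, only the angiopoietin receptor TEK lay above the median of all detected genes per kb, by either length. PTPRC, the leukocyte antigen CD45, had 9.89, 25.4 and 9.52, the macrophage receptor CSF1R 92.0, 65.8 and 143, and the myeloid factor SPI1 was under 10 in all 3 libraries. CD34, of blood stem cells and endothelium, had 165, 141 and 95.5. The summed value of the 7 endothelial genes was 2179, 2118 and 2149, most of it from TEK at 1952, 1829 and 1958, while the endothelial cadherin CDH5 was under 10 in each. In the osteoclast list the integrin ITGB3 had 625, 415 and 699 and the RANK receptor TNFRSF11A 482, 338 and 359.6. CALCR and OCSTAMP, genes of mature osteoclasts, were listed at 0 in all 3 libraries, and the protease CTSK was at 74.6, 107 and 83.3.

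Some markers of other tissues were high. The simple-epithelium keratin KRT18 had 25085 in EV replicate 2, 21377 in WT replicate 1 and 29242 in WT replicate 2, and its partner KRT8 21534, 14366 and 17238. Both were above the median of detected genes, at 17859 and 9929 per kb of canonical transcript against 285; keratin genes have many processed copies, so counts can be split. The epithelial surface genes EPCAM and CDH1 were low, at 46.6, 18.2 and 9.97 and 60.9, 51.5 and 39.9, KRT14 was at 7.07, 12.6 and 8.24, and KRT5 was under 10 in all 3 libraries. TUBB3, a neuronal beta tubulin, had 4065, 3747 and 7295 and MBP, of myelin, 2781, 2725 and 2530.3, whereas the neuronal STMN2 was at 0, 0.961 and 0. MAP2, of dendrites, was above 10 in EV replicate 2 alone, at 116, 5.28 and 2.35. The summed neuronal list was 4396, 3939.7 and 7537, led by TUBB3.

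Muscle genes were detected for 4 of 6 skeletal and 2 of 3 cardiac members, against 41.1% of all genes. The median of the detected skeletal members was 305 per kb by either length, against 285 by canonical and 464 by median length over all detected genes. MYOD1, a master factor of skeletal muscle, had 853 in EV replicate 2, 916 in WT replicate 1 and 526 in WT replicate 2, and MYOG, which acts after it, 359, 369 and 109. The muscle filament protein DES had 2508, 3667 and 1629, and the embryonic myosin MYH3 158, 185 and 45.9. These 4 genes, all the detected members of the skeletal muscle list, were highest in WT replicate 1 and lowest in WT replicate 2. Among all 14630 detected genes, 3928 were highest in WT replicate 1 and 4056 were lowest in WT replicate 2. The mature muscle genes ACTA1 and CKM were near the level of detection, ACTA1 from 9.28 to 12.2 and CKM at 7.50, 24.4 and 1.46. The summed skeletal muscle list was 3899, 5171 and 2324, with DES the highest by value; which cells made these transcripts was not tested. In the cardiac list the troponin TNNT2, at 940.2, 1236 and 317, was likewise highest in WT replicate 1, whereas the factor NKX2-5, at 204, 162 and 302, was highest in WT replicate 2; the cardiac myosin MYH6 was under 10.

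Genes of skeletal neighbours and other fates were detected in part. The cartilage matrix protein MATN3 had 1054, 1099.8 and 1037, SOX9, the cartilage factor, 425, 231 and 561, and COL10A1, of hypertrophic cartilage, 76.6, 193 and 590.2. In the adipocyte list the nuclear receptor PPARG had 287, 359 and 191, while LEP was under 10 in all 3 libraries and CIDEC listed at 0. MKX of tendon had 275, 231 and 310.1 and TNMD 0.878, 0 and 0. Of 6 pluripotency genes 5 were detected, against 41.1% of all genes, but at low levels. Their median was 12.6 per kb of canonical transcript, against 285 over all detected genes. The highest by value was POU5F1 at 41.6, 47.3 and 75.4, whose close copies can share counts, and SOX2 was under 10 throughout. PMEL of melanocytes had 107, 200.1 and 93.8, with TYR under 10.

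**Figure D5:**
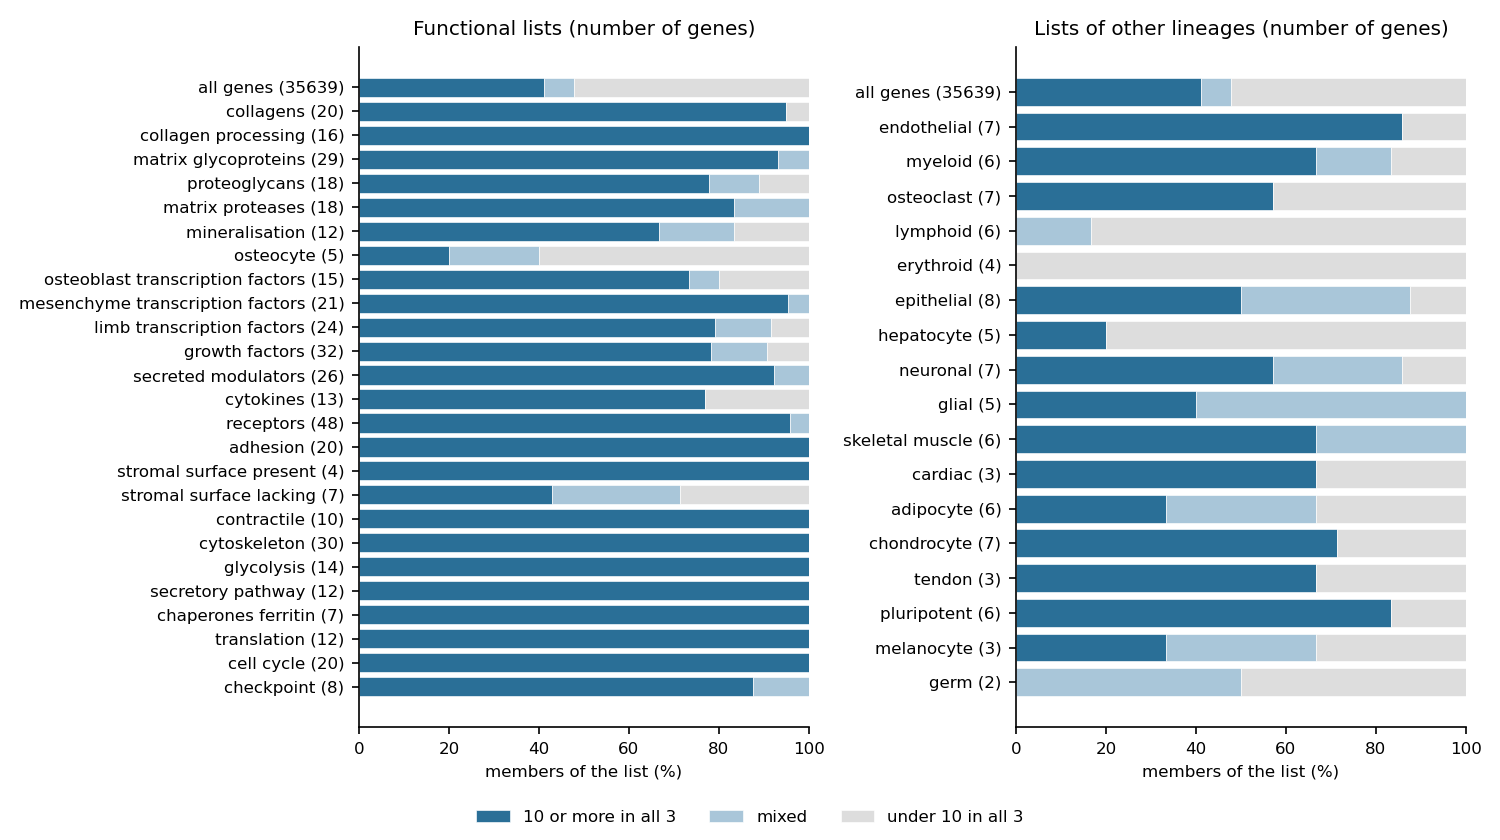
Share of each list's genes (horizontal axis, %) detected at 10 or more in all 3 libraries, mixed, or under 10 in all 3, with the number of genes in brackets; functional lists are on the left and lists of other lineages on the right, each under the same bar for all genes. Adhesion and collagen-processing genes are all detected, whereas no lymphoid, erythroid or germ cell gene is.

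Differences between the 3 libraries mix the construct with culture and library, which cannot be told apart here. Over the 14630 detected genes, the highest library was a median of 1.37 times the lowest, with a 25th percentile of 1.21 and a 75th percentile of 1.68; the median coefficient of variation was 16.5%. The ratio was at least 2 for 2101 genes (14.4%), and for 8 of the 300 highest genes. Pairs of libraries differed at least 2-fold for 844 genes between EV replicate 2 and WT replicate 1, for 1046 between EV replicate 2 and WT replicate 2, and for 1324 between the WT libraries. The libraries of 1 title thus differed at more genes than either did from EV replicate 2. Wide ratios among the 300 highest genes were those of THBS1 at a ratio of 4.27, TNC at 2.94, TAGLN at 2.81 and the ribosomal stalk gene RPLP1 at 2.20, each highest in WT replicate 2 and lowest in WT replicate 1. WT replicate 2 was the highest library for 29 of 30 cytoskeletal and 13 of 14 glycolytic genes, and for 27 and 11 after scaling by the median ratio. Among all 14630 detected genes the same counts were 6969 and 5413.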

How the data were processed

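RNA from 6 hFOB 1.19 libraries was quantified by the authors; 3 were used here. As the study's methods and the submitters' processing notes state, the authors estimated counts with kallisto on Ensembl GRCh38 transcript models, imported them with tximport and normalised them in DESeq2. The deposited values are this normalised signal, per gene and not per length; whole reads could not be recovered from them, so depth per library is unknown and no interval or limit of detection is given. A 0 means only that a gene is listed at 0. Genes were ranked by the mean of the 3 values. Levels per kb used lengths from GENCODE transcripts lifted to GRCh37, found by identifier for 99.1% of genes: the median of coding transcripts and, added after seeing the data, the canonical transcript.

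Genes named are the 30 highest by mean and per kb of median length; in each list the 4 highest per kb, every member under 10 in all 3 libraries and COL1A1, ACTB, GAPDH, RUNX2, SP7, BGLAP, SCUBE3, TNFSF11 and TNFRSF11B; for other lineages each member at 10 or more in any library; and of the 300 highest genes the 5 with the widest ratio. The rule takes 233 genes, of which the text gives those it describes; others are not reported here. Members and lists were chosen with earlier results of these data known. No test was run, since no groups are compared. Calculations were tested on simulated data. Python 3.11.15, pandas 2.3.3, numpy 2.4.6 and matplotlib 3.10.9 were used.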

Additional observations from a re-analysis of the deposited data

How the results depend on the processing

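No paired analysis was possible because no result comes from a test between groups. Leaving out each library in turn, using EV replicate 2 alone, or taking the genotype field in place of the titles was run for the ranks, the shares of the highest genes and their classes, and the total counts of detected and listed genes. None moved past the spread of the libraries, or for counts past 1.5 times, apart from 1 count. EV replicate 2 alone put 35 in place of 21 members of the functional lists under 10. For the shares, the limit was the spread of the same 3 libraries. Leaving out 1 of them can hardly move a mean past that spread, so this check says little. Genes with a ratio of at least 2, 2101 over 3 libraries, numbered 844 to 1324 over pairs of them. By the genotype field the mean of SCUBE3 was 263 against 538, that of TNFSF11 24.6 against 7.18 and that of TNFRSF11B 978 against 1064, moves past the spread of the libraries. BGLAP at 12.3 against 29.9 and SP7 at 2.06 stayed within that spread, although BGLAP moved by a larger ratio than SCUBE3. In EV replicate 2 alone the value of BGLAP was 5.55 against a mean of 29.9, that of RUNX2 573 against 463, and that of SP7 1.57 against 4.39 and 6.03 in the WT libraries. The cause was not tested.

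Of the 100 highest genes by value, 63 stayed among the 100 highest per kb of median length, 58 per kb of the longest transcript and, chosen after seeing the data, 56 per kb of the canonical transcript. Protein synthesis genes then made up 34% (median length) and 44% (canonical) in place of 22%, and matrix genes 2% and 1% in place of 10%. In the top 300, cytoskeletal genes made up 8.33% in place of 17% and glycolytic genes 3.33% in place of 7%; lists of 30 and 14 genes cannot fill as large a share of 300, so these falls say nothing of the result. Without PLCG2, PLLP, RIMBP3C, PPEF2 and NRSN1, left out after seeing the data, the 10 highest genes held 5.39% and the 100 highest 18.7%. With detection at 50 in place of 10, 24 in place of 46 of 91 lineage genes were detected, against 12531 in place of 14630 of all 35639 genes, and 56 in place of 29 were under the level in all 3; of the functional lists 55 were under it, against 10 at a level of 5. Genes with a ratio of at least 2 numbered 946 at a level of 50 and 1324 between the WT libraries alone, against 2101.

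With 3 libraries, no depth and labels that disagree on the construct, precision rests on the spread alone. Per kb levels depend on the transcript assumed, and estimated counts of genes with close copies can be split.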
